A study of Mus musculus with 66 samples.

Results

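Rectal mucosa taken on day 14 of a course of chemical colitis was compared with rectal mucosa taken on day 9. The labels gave 3 rectal samples for each of the 2 days, so the comparison rests on 6 of the 66 samples in the series. All animals were C57BL/6 mice bought at 6 weeks of age, with no other strain, allele or drug named in the labels. They were exposed to 3% dextran sulfate sodium (DSS), a sulfated polysaccharide that injures the colonic epithelium, for 6 days from day 0. Day 9 (mice 11, 12 and 13) was therefore 3 days after the end of the exposure, and day 14 (mice 14, 15 and 16) was 8 days after it. The 2 groups were different animals, so no sample of day 9 is paired with one of day 14. Rectal mucosa of 4 uninjured mice (day 0, mice 1 to 4) and mid-colonic mucosa of the same 6 injured mice were used for reference. Each sample was bulk RNA of a dissected mucosal surface, so a gene's level averages over all cells of the piece.

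After DSS is withdrawn, a colon repairs itself along several lines at once. Neutrophils and monocytes that entered the tissue die or leave, and macrophages clear the debris. Crypt cells divide to cover the denuded surface, and their daughters mature into absorptive colonocytes, which take up salt, water and short-chain fatty acids, and into goblet cells, which secrete the mucus layer. Plasma cells in the lamina propria produce immunoglobulin A, which the epithelium carries into the lumen. The comparison asks how far each of these had moved in the rectum between the 2 days, and levels are given throughout as TPM, the share of a library's transcripts scaled to a common total, listed in the order mice 11, 12 and 13 for day 9 and mice 14, 15 and 16 for day 14.

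Because the files give TPM and no counts of reads, sequencing depth is unknown, and a value of 0 is written as listed at 0. The 6 rectal samples each had 12080 to 13242 genes at or above 1 TPM. The pan-epithelial genes Epcam and Krt8 were between 791 and 1523 TPM and between 2616 and 4639 TPM, so the pieces held epithelium as labelled. The summed level of 8 general epithelial genes was between 9970 and 12668 TPM on day 9 and between 15404 and 18457 TPM on day 14. Their median log2 change was 0.44. In limma 0 of the 8 were called, with 4 at an unadjusted p under 0.05, and 4 rose with all 19 rectal samples in the fit. The part of a larger epithelial share in the epithelial rises below was not tested. The day 14 mice stood apart from each other: mouse 14 had the fewest genes at 1 TPM (12080) and the largest share of TPM from mitochondrial genes (18.4%, against 11.6% and 13.4% in mice 15 and 16), both inside or next to the range of the uninjured mice (12130 to 12328 genes, 16.3% to 20.0%). Markers of neighbouring tissue differed between pieces. The summed level of 12 squamous keratin and cornification genes, among them Krt5 and Krt13, was 836, 229 and 187 TPM on day 9 and 36.8, 1066 and 745 TPM on day 14. The summed level of 8 smooth muscle genes was 1460, 256 and 1476 TPM on day 9 and 1025, 537 and 693 TPM on day 14. Skeletal muscle genes summed to 167 TPM in mouse 13 and to between 11.0 and 27.2 TPM in the other 5. In limma, 0 of 10 squamous, 0 of 8 smooth muscle and 0 of 5 skeletal muscle genes tested were called between the days, with 1, 0 and 1 at an unadjusted p under 0.05; with all 19 rectal samples in the fit, 1 skeletal muscle gene was lower. The part of these tissues in the results below was not tested.

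Between day 9 and day 14, 1054 of 13115 genes (8.04%) had an adjusted p under 0.05, in a moderated linear model on log2(TPM + 1) with Benjamini-Hochberg adjustment over all genes tested. Of these, 435 were higher on day 14 (3.32% of the genes tested) and 619 were lower (4.72%). A gene is said to have risen or fallen only where it passed this threshold. The day 9 and day 14 values of all 1054 genes did not overlap. Across all genes tested, 12.7% lay wholly higher and 23.4% wholly lower on day 14, so the lack of overlap alone was common. The median change over all genes was -0.16 on the log2 scale and 0.004 with trimmed-mean scaling factors. With those factors the calls numbered 1658, split into 851 higher and 807 lower (51.3% higher, against 41.3% without the factors), so the excess of falls depended on the scaling.

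The calls leaned on every mouse. Leaving out mouse 13 of day 9 left 0 calls, with 2791 genes at an unadjusted p under 0.05 in limma against 3960 with all 6 mice, so each single-gene call below was lost in that fit. Without mouse 11, 12, 14, 15 or 16 there were 199, 75, 695, 432 or 79 calls. The fits with 1 mouse left out also had a looser filter and tested between 13366 and 13550 genes. The direction of all 1054 called genes was the same in every one of these 6 fits that tested them. That was fixed in advance, because the values of the 2 days did not overlap for any of these genes. When all 19 rectal samples of days 0 to 20 entered the fit, 3907 genes were called between day 9 and day 14. These were 9.66% of the genes higher and 20.1% lower, among them 1037 of the 1054. That fit uses more mice but assumes the same spread on every day. The mean log2(TPM + 1) of the neutrophil genes ran from 0.93 to 1.24 on day 0 and from 3.07 to 6.66 on day 14. How far unequal spread raised the counts of the wider fit was not tested. Counts from that wider fit are given beside the lists where they differ by more than 1.5 times. The counts of each list stand beside the shares of all genes. In the main fit 3.32% rose and 4.72% fell, and in the wider fit 9.66% rose and 20.1% fell.

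**Figure D1:**
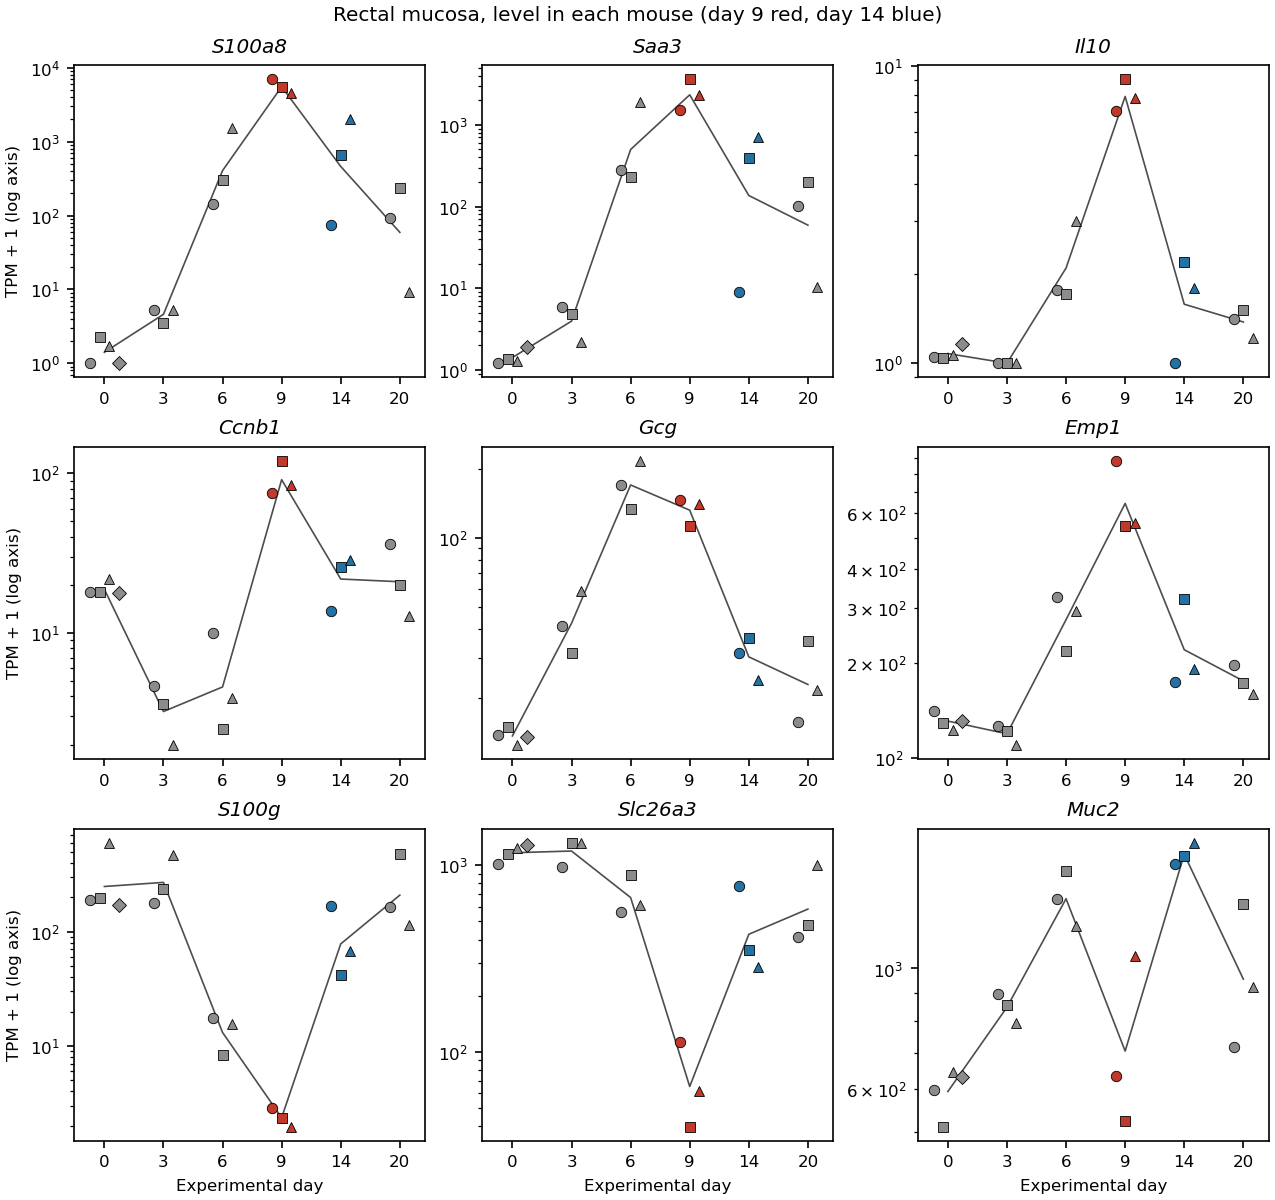
Level of 9 genes in the rectal mucosa of each mouse, as TPM + 1 on a logarithmic axis, against experimental day; each point is 1 mouse (day 9 red, day 14 blue, other days grey), symbols separate mice within a day, and the line joins the geometric means. S100a8, Saa3, Il10, Ccnb1, Gcg and Emp1 lie lower and S100g, Slc26a3 and Muc2 higher in all 3 mice of day 14 than in all 3 of day 9, and mouse 14 (blue circle) is lowest on day 14 for S100a8 and Saa3.

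Neutrophil transcripts were far lower on day 14. In bulk tissue, fewer neutrophils and less of a transcript per neutrophil cannot be told apart. Of 16 neutrophil genes tested, 4 fell (Retnlg, Mmp8, Fpr1 and Ly6g) and 0 rose, and their median change was -2.35, against -0.16 for all genes. In the wider fit 9 of the 16 fell, and without mouse 14 the median of the list was -1.40. Retnlg, which encodes a resistin-like protein of neutrophils, was 820, 645 and 690 TPM on day 9 and 3.35, 30.7 and 101 TPM on day 14. The days did not overlap, and mouse 14 was lowest and mouse 16 highest on day 14. The change of Retnlg was -4.89 ± 1.00 (SE) on the log2 scale (adjusted p 0.036). Fpr1, the receptor by which neutrophils follow bacterial formyl peptides, went from 52.7, 71.6 and 60.9 TPM to 0.793, 4.41 and 12.4 TPM, a change of -3.62 ± 0.65 (SE; adjusted p 0.029). Mmp8, the neutrophil collagenase, went from 88.9, 46.9 and 39.4 TPM to 0.326, 3.09 and 11.7 TPM, a change of -3.77 ± 0.76 (SE; adjusted p 0.036). In each of them mouse 14 had the lowest and mouse 16 the highest level of day 14.

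The most abundant neutrophil transcripts differed by large amounts without passing the threshold. S100a8, a subunit of calprotectin, was 6975, 5487 and 4504 TPM on day 9 and 72.9, 658 and 2032 TPM on day 14, and between 0 and 1.27 TPM in uninjured mice. Its change was -3.59 ± 1.06 (SE; adjusted p 0.075, and 0.025 in the wider fit). The other calprotectin subunit, S100a9, changed by -3.37 ± 1.03 (SE; adjusted p 0.08). Against day 0, 12 of 14 neutrophil genes tested were still called higher on day 14 (6.31% of all genes were). The list has 16 genes. A gene under 1 TPM in every uninjured mouse was tested only if all 3 day 14 mice reached 1 TPM. This filter favours genes still high on day 14 in the comparison with day 0. That comparison, which shares the day 14 mice, called 2017 of 12749 genes, and between 386 (without mouse 16) and 5165 (without mouse 14) when 1 mouse was left out. Ly6g behaved differently from the other members: it was already between 602 and 736 TPM in the uninjured rectum, went to 1400, 2078 and 1534 TPM on day 9 and returned to 782, 803 and 586 TPM on day 14, a change of -1.20 ± 0.21 (SE; adjusted p 0.028, and 0.067 with trimmed-mean factors). It lies in a cluster of related Ly6 genes, so its level is uncertain as a measure of neutrophils. Ltf (lactoferrin) did not follow the list. It was 27.8, 13.4 and 7.6 TPM on day 9 and 1.42, 166 and 171 TPM on day 14 (adjusted p 0.58). Ltf was high in mice 15 and 16, in which the squamous markers were also high. Those markers were high in mouse 11 too, where Ltf was 27.8 TPM. The part of that tissue was not tested.

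By the size of the change among called genes with a mean of at least 10 TPM, the 15 largest falls were Retnlg, Ngp, Stfa2, Stfa3, Ifitm6, Mmp8, Fpr1, Stfa1, Il33, Thbs1, Asprv1, Ccl11, F13a1, Serpinb2 and Alox5ap. Ngp, a neutrophil granule protein, went from 74.0, 48.3 and 22.4 TPM to a value listed at 0 and to 0.188 and 2.03 TPM, a change of -4.85 ± 0.55 (SE; adjusted p 0.014). Stfa1, Stfa2 and Stfa3 encode stefin A cysteine protease inhibitors, and because they are close copies of each other their separate values are uncertain. Alox5ap, which activates 5-lipoxygenase for leukotriene synthesis, went from 186, 179 and 164 TPM to 6.01, 31.3 and 53.9 TPM, a change of -2.93 ± 0.68 (SE; adjusted p 0.045).

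Thbs1 encodes thrombospondin-1, a matrix glycoprotein of platelets and wounds. It was 58.8, 125 and 122 TPM on day 9 and 5.30, 12.5 and 12.2 TPM on day 14, with no overlap and little spread among the mice of day 14, and it changed by -3.23 ± 0.40 (SE; adjusted p 0.016). F13a1, the A subunit of the fibrin-crosslinking factor XIII and a macrophage product, was 32.9, 30.4 and 23.0 TPM on day 9 and 1.72, 2.44 and 4.29 TPM on day 14. It changed by -3.004 ± 0.29 (SE; adjusted p 0.012) and lay below the uninjured mice, which had between 6.82 and 8.18 TPM (-1.20 ± 0.22 against day 0, adjusted p 0.017). Ccl11, the eosinophil-attracting chemokine eotaxin, went from 65.7, 28.2 and 47.3 TPM to 3.16, 3.66 and 7.95 TPM (-3.03 ± 0.40, SE; adjusted p 0.019), beside 8.27 to 9.37 TPM in uninjured mice. The eosinophil markers Epx and Ccr3 were at most 0.259 TPM in all 6 samples, Epx being listed at 0.

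The 250 bases before the annotated start were searched for short motif spellings in the genes with the largest changes, as a description of what these genes carry. RefSeq promoter windows (GRCm38.p6) were found for 12 of the 15 largest falls and 13 of the 15 largest rises, with 15 windows in each set because some genes have more than one start. The C/EBP-type spelling TTGCNNAA, on either strand, occurred in 7 of the 15 windows of fallen genes (46.7%), in 4 of the 15 of risen genes (26.7%) and in 9.56% of 32851 windows over all genes. The HNF4-type spelling CAAAGTCCA occurred in 0 windows of fallen genes, in 2 of risen genes (13.3%) and in 0.384% of all windows. An NF-kB-type motif occurred in none of the 30 windows and in 1.41% of all. The CDX-type spelling TTTATNG occurred in 2 windows of each set (13.3%) and in 9.81% of all. C/EBP proteins are factors of granulocyte differentiation, and HNF4 proteins are factors of the absorptive epithelium. The members were chosen by their change, so these shares describe them and test nothing. The 2 windows with the HNF4-type spelling, and those of 2 neutrophil genes with the C/EBP-type spelling, are printed 5′ to 3′ with the matching bases in capitals.
Trpv6 (chr6:41636406-41636655, minus strand): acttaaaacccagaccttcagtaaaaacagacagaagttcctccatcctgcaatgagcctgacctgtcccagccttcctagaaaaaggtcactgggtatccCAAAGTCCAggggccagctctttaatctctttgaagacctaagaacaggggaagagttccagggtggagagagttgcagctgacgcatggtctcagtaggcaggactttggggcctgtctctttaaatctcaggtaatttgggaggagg
Cyp2c68 (chr19:39741102-39741351, minus strand): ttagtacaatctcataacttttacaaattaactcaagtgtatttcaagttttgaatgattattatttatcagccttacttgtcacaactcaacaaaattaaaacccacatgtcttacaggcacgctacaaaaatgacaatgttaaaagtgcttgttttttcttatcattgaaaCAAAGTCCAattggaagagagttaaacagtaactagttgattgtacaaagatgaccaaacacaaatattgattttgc
Ngp (chr9:110419558-110419807, plus strand): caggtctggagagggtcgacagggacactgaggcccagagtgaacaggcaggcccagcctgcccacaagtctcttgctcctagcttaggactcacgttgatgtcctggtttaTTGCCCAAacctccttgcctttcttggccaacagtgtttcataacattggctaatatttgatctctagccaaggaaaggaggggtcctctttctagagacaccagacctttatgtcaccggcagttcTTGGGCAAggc
Mmp8 (chr9:7558179-7558428, plus strand): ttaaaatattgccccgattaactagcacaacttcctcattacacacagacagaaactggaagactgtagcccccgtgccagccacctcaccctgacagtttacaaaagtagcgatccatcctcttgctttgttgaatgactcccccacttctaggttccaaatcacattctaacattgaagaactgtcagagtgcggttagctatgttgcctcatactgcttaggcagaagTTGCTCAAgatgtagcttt
The match begins 149 bases before the start in Trpv6 and 77 in Cyp2c68. In Ngp there are 2 matches, 138 and 11 bases before the start, and in Mmp8 there is 1, 19 bases before it.

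Signals that call neutrophils in, and the acute-phase response of the epithelium, were lower on average but scattered between mice. Of 6 neutrophil-recruiting chemokine and growth factor genes tested, 0 were called in limma, with 3 at an unadjusted p under 0.05 (median -2.19, and -0.97 without mouse 14). In the wider fit 2 fell (20.1% of all genes did). Csf3, the granulocyte growth factor G-CSF, was 7.68, 20.2 and 33.9 TPM on day 9 and 0.0663, 1.78 and 5.06 TPM on day 14 (-2.83 ± 0.71, SE; adjusted p 0.054). Of 9 acute-phase genes, 2 fell, with a median of -1.69, and 7 fell in the wider fit. Lbp, which hands bacterial lipopolysaccharide to its receptor, was 15.0, 9.36 and 18.4 TPM on day 9 and 2.47, 5.75 and 3.11 TPM on day 14, next to 2.36 to 3.51 TPM in uninjured mice. It changed by -1.69 ± 0.34 (SE; adjusted p 0.035). Saa1, a serum amyloid made by colonocytes, went from 5955, 4350 and 6055 TPM to 2613, 3496 and 2466 TPM (-0.93 ± 0.21, SE; adjusted p 0.043). Saa3 had a larger difference and a larger spread, from 1524, 3591 and 2306 TPM to 8.12, 387 and 718 TPM (-4.09 ± 1.49, SE; adjusted p 0.12).

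Among 15 inflammatory cytokine genes tested, Il10 and Il33 fell and Il18 rose, and the median change was -1.48 (-0.60 without mouse 14). Il10, the cytokine that restrains macrophages, was 6.03, 8.01 and 6.77 TPM on day 9. On day 14 it was listed at 0 in mouse 14 and was 1.20 and 0.792 TPM in mice 15 and 16. The days were far apart and each was tight, and the change was -2.32 ± 0.32 (SE; adjusted p 0.022). Il33, an alarmin of damaged epithelium and stroma, went from 66.5, 76.8 and 94.4 TPM to 1.37, 7.43 and 23.9 TPM (-3.33 ± 0.75, SE; adjusted p 0.043). Il18, an epithelial cytokine, moved the other way, from 49.1, 67.1 and 36.3 TPM to 206, 107 and 145 TPM (1.56 ± 0.31, SE; adjusted p 0.033), and uninjured mice had between 150 and 182 TPM. Il22, which drives epithelial defence and repair, changed by -1.86 ± 0.50 (SE; adjusted p 0.061). Il1b was 326, 1592 and 1603 TPM on day 9 and 52.3, 395 and 982 TPM on day 14, so the days overlapped (-1.78 ± 1.09, SE; adjusted p 0.31). In the wider fit 5 of the 15 cytokine genes fell and 1 rose (20.1% of all genes fell and 9.66% rose).

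Macrophage genes were lower as well. Of 16 monocyte and macrophage genes, 4 fell (Adgre1, Cd68, Mrc1 and Msr1), none rose, and the median was -1.59. In the wider fit 13 fell. Cd68, a lysosomal glycoprotein of macrophages, was 103, 92.4 and 127 TPM on day 9 and 9.68, 39.5 and 25.5 TPM on day 14 (-2.25 ± 0.45, SE; adjusted p 0.035), and mouse 14 lay within the 8.45 to 11.7 TPM of uninjured mice. Mrc1, the mannose receptor of resident and repair macrophages, went from 45.7, 14.7 and 22.8 TPM to 6.56, 7.08 and 6.81 TPM (-1.73 ± 0.38, SE; adjusted p 0.04), at or below the uninjured 7.33 to 9.65 TPM. The monocyte gene Ccr2 overlapped between the days, at 5.43, 20.4 and 14.6 TPM and 2.40, 13.1 and 10.0 TPM (adjusted p 0.52). Of 12 matrix remodelling genes, Timp1 and Spp1 fell and 10 were not called (median -1.70, and -1.03 without mouse 14), and 7 fell in the wider fit. Timp1, an inhibitor of metalloproteinases, was 94.2, 113 and 118 TPM on day 9 and 4.68, 26.5 and 28.5 TPM on day 14 (-2.71 ± 0.60, SE; adjusted p 0.041). Of 12 fibroblast and collagen genes, Dcn and Pdpn fell, and the collagens Col1a1, Col1a2 and Col3a1 overlapped between the days (median of the list -0.79, -1.22 without mouse 12 and -0.52 without mouse 14).

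Of 13 genes tied to the ending of inflammation, Mertk and Hpgd rose and Ptges fell, with a list median of -0.94 (-0.45 without mouse 14). Mertk, the receptor with which macrophages engulf dying cells, was 2.32, 1.64 and 2.37 TPM on day 9 and 7.83, 5.88 and 4.43 TPM on day 14 (1.16 ± 0.25, SE; adjusted p 0.039), and uninjured mice had between 7.52 and 11.7 TPM. Hpgd, which degrades prostaglandin E2, went from 58.8, 15.3 and 20.3 TPM to 167, 86.0 and 114 TPM (2.11 ± 0.49, SE; adjusted p 0.046). Ptges, which makes prostaglandin E2, went from 23.5, 38.9 and 28.2 TPM to 2.57, 7.69 and 12.7 TPM (-2.02 ± 0.48, SE; adjusted p 0.047). The enzyme that makes the prostaglandin and the one that breaks it down thus moved in opposite directions, with no overlap between days for either. In the wider fit 6 of the 13 fell and 3 rose (20.1% of all genes fell and 9.66% rose).

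Interferon and antigen-presentation genes showed no common change between the days. None of 12 interferon-stimulated genes was called at an adjusted p under 0.05, in the main or the wider fit (median -0.01), and 0 of the 12 had an unadjusted p under 0.05 in limma. For the 7 MHC class II genes both counts were also 0 (median 0.28, and between -0.19 without mouse 15 and 1.11 without mouse 14). The mice of each day differed from each other instead: the interferon list averaged 1.25 log2 units above day 0 in mouse 11 and 1.33 in mouse 14, and between 3.64 and 4.35 in the other 4. H2-Aa, a chain of the MHC class II molecule, was 323, 545 and 594 TPM on day 9 and 228, 1000 and 744 TPM on day 14. Against day 0, 11 of 11 interferon-stimulated genes and 5 of 6 MHC class II genes tested were called higher on day 14 (6.31% of all genes were). The lists have 12 and 7 genes, and the rest did not pass the filter of that fit. That comparison shares the day 14 mice. The median change of the interferon list was between -0.90 (without mouse 11) and 0.74 (without mouse 14) with 1 mouse left out, and with trimmed-mean factors it was 0.13.

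**Figure D2:**
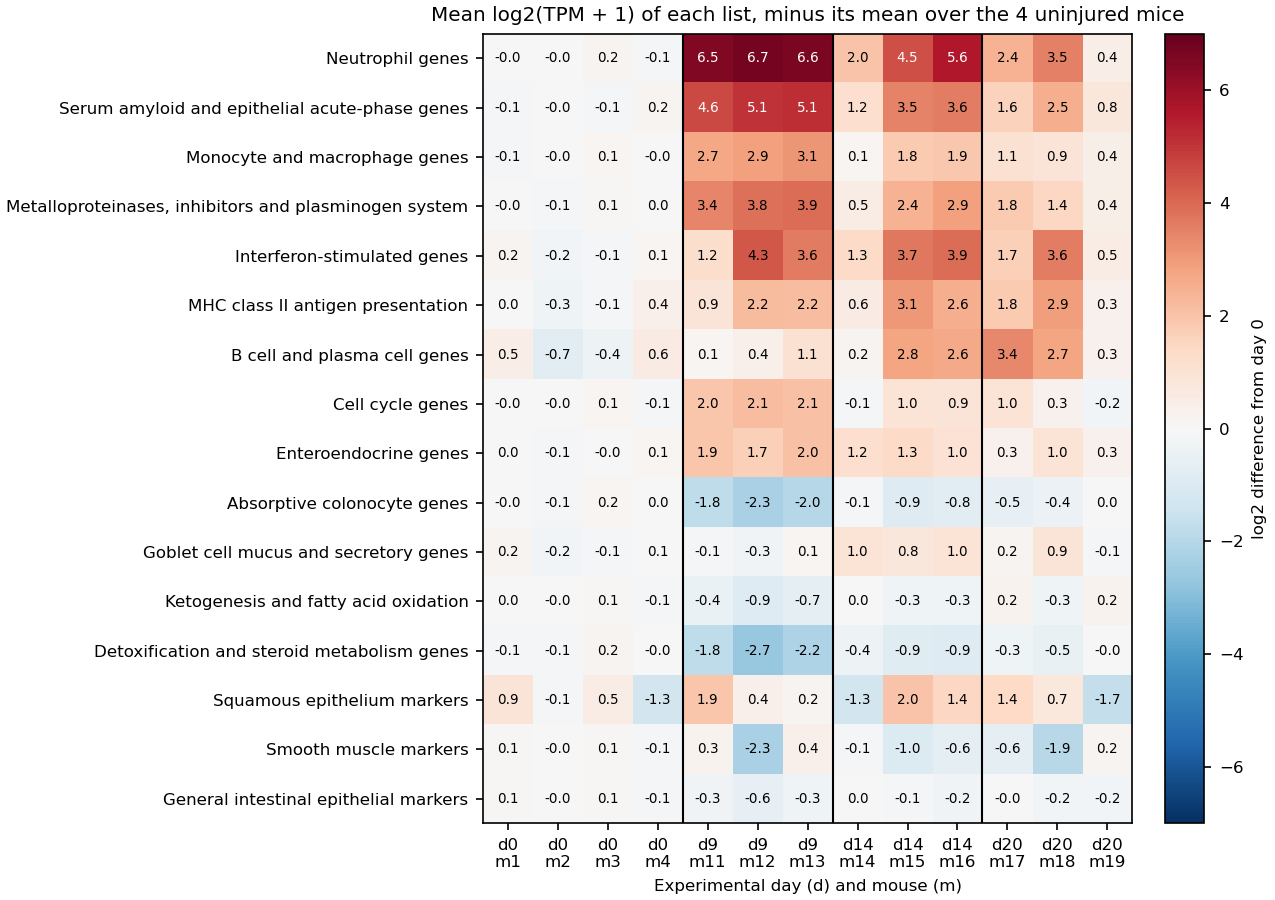
Mean log2(TPM + 1) over the genes of each list in the rectal mucosa of each mouse, minus the mean of the 4 uninjured mice; columns are mice grouped by day (0, 9, 14 and 20), and red is above and blue below the uninjured level. The neutrophil row reads 6.5, 6.7 and 6.6 on day 9 and 2.0, 4.5 and 5.6 on day 14, while the interferon row is low in mouse 11 (1.2) and mouse 14 (1.3) and the squamous row is high in mice 11, 15 and 16.

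Transcripts of the immunoglobulin A heavy chain, the kappa light chain and the joining chain rose. Of 14 B cell and plasma cell genes tested, Igha, Igkc and Jchain rose, none fell, and the median was 0.90. That median rested on single mice: it was 0.46, 0.76 and 1.52 without mouse 11, 12 or 13 and 2.11, -0.01 and 0.58 without mouse 14, 15 or 16. Igha, the constant region of immunoglobulin A, was 35.1, 46.6 and 57.9 TPM on day 9 and 144, 499 and 871 TPM on day 14, a change of 3.10 ± 0.60 (SE; adjusted p 0.033). Jchain, which joins immunoglobulin A into dimers, went from 16.7, 16.8 and 19.5 TPM to 65.9, 110 and 206 TPM (2.63 ± 0.38, SE; adjusted p 0.022). In both, mouse 14 was the lowest of day 14 and still above all of day 9. Uninjured mice had between 63.9 and 265 TPM of Igha, so day 9 lay below and mice 15 and 16 above that range. Igkc, the kappa constant region, changed by 2.53 ± 0.54 (SE; adjusted p 0.039). Immunoglobulin genes are highly similar, so how their transcripts were divided is uncertain. The B cell genes Cd79a and Ms4a1 overlapped between the days: Cd79a was 7.92, 7.28 and 30.9 TPM and 1.75, 92.5 and 36.9 TPM. Pigr, the epithelial receptor that carries dimeric immunoglobulin A to the lumen, also rose, from 645, 256 and 375 TPM to 1062, 1107 and 1026 TPM (1.43 ± 0.31, SE; adjusted p 0.041). Its day 14 values were closely spaced and lay above the uninjured 764 to 935 TPM, although the difference from day 0 was not called (adjusted p 0.1).

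Most of the cell division genes tested fell. Of 12 cell cycle genes tested, 9 fell (Mki67, Ccnb1, Ccna2, Cdk1, Pcna, Birc5, Aurka, Bub1 and Tyms), none rose, and all 12 lay wholly lower on day 14 (23.4% of all genes did). Their median change was -1.42. Ccnb1, the cyclin of mitotic entry, was 74.8, 118 and 83.1 TPM on day 9 and 12.8, 25.0 and 27.7 TPM on day 14, beside 16.7 to 20.6 TPM in uninjured mice, and changed by -2.07 ± 0.32 (SE; adjusted p 0.024). Mki67 went from 51.3, 49.6 and 45.2 TPM to 12.1, 19.5 and 19.6 TPM (-1.49 ± 0.22, SE; adjusted p 0.023), with 14.1 to 16.3 TPM in uninjured mice. Mouse 14 lay below the uninjured range for both genes, and mice 15 and 16 lay above it. Against day 0, 0 of the 12 were called in limma, with 4 at an unadjusted p under 0.05. Among crypt stem cell and Wnt target genes, Olfm4 was the only one of 11 called (4.72% of all genes fell). In the wider fit 3 fell (20.1% of all genes did), and 2 fell with trimmed-mean factors. Olfm4 fell from 3.08, 3.56 and 2.16 TPM to 0.0275, 0.12 and 0.705 TPM (-1.64 ± 0.27, SE; adjusted p 0.027). It passed the filter only through its day 9 values. It was listed at 0 in all 4 uninjured mice, so its fall is given only as a gene and not as a measure of stem cells.

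Genes of injured or fetal-like epithelium were divided. Of 14 tested, Il33, Emp1 and Cldn4 fell and 0 rose (median -0.50, and -0.83 without mouse 16). In the wider fit 5 fell (20.1% of all genes did). Emp1, an epithelial membrane protein, was 877, 544 and 557 TPM on day 9 and 174, 320 and 191 TPM on day 14, still above the 121 to 140 TPM of uninjured mice (-1.55 ± 0.29 against day 9, SE; adjusted p 0.031; 0.75 ± 0.20 against day 0, SE; adjusted p 0.042). Cldn4, a tight junction claudin, went from 94.1, 135 and 133 TPM to 50.4, 50.8 and 38.5 TPM (-1.34 ± 0.21, SE; adjusted p 0.024), within the uninjured range of 27.9 to 67.5 TPM. Ly6a, which encodes Sca-1 and marks regenerating epithelium, was 3684, 7018 and 4766 TPM on day 9 and 1923, 4663 and 4987 TPM on day 14, with overlap (adjusted p 0.46). It remained above day 0, where it was between 550 and 738 TPM (2.51 ± 0.32, SE; adjusted p 0.0063).

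Of 15 absorptive colonocyte genes tested, 5 rose (S100g, Slc26a3, Guca2a, Guca2b and Fabp2), none fell, and the median was 1.30 (0.88 without mouse 14). In the wider fit 10 rose (9.66% of all genes did). S100g, the calcium-buffering protein calbindin-D9k, had the largest rise of the genes with a mean of at least 10 TPM. It was 1.85, 1.33 and 0.962 TPM on day 9 and 167, 40.8 and 66.9 TPM on day 14, against 170 to 599 TPM in uninjured mice, and its change was 5.05 ± 0.48 (SE; adjusted p 0.012). Trpv6, the calcium channel of the apical membrane, went from 1.79, 0.867 and 0.995 TPM to 28.0, 19.3 and 20.1 TPM, a change of 3.41 ± 0.25 (SE; adjusted p 0.0089). All 3 mice of day 14 lay within the uninjured range of 19.0 to 31.3 TPM. Vdr, the vitamin D receptor, whose known targets include both genes, rose from 33.1, 15.0 and 30.3 TPM to 147, 80.7 and 65.1 TPM (1.85 ± 0.39, SE; adjusted p 0.038). Vdr was still well below the uninjured 287 to 379 TPM (-1.81 ± 0.26 against day 0, SE; adjusted p 0.0091).

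Other colonocyte genes differed in how far they had returned. Slc26a3, the chloride-bicarbonate exchanger of the colon surface, was 112, 38.6 and 60.6 TPM on day 9 and 777, 349 and 284 TPM on day 14, a rise of 2.71 ± 0.48 (SE; adjusted p 0.028) that left it below the uninjured 1011 to 1291 TPM. Fabp2, a fatty acid binding protein, went from 5.62, 4.77 and 4.79 TPM to 28.4, 17.7 and 20.6 TPM (1.92 ± 0.22, SE; adjusted p 0.014), and uninjured mice had between 14.6 and 23.9 TPM. Guca2a, which encodes guanylin, was 319, 121 and 141 TPM on day 9 and 1722, 500 and 1235 TPM on day 14 (2.53 ± 0.52, SE; adjusted p 0.037). The carbonic anhydrases Car1 and Car4, major products of the mature surface cell, did not share this. Car1 was 1190, 1097 and 1168 TPM on day 9 and 2452, 839 and 733 TPM on day 14: mouse 14 was above and mice 15 and 16 were below all of day 9 (adjusted p 0.99). Car4 was 1760, 1082 and 1535 TPM and 1950, 1223 and 986 TPM (adjusted p 0.85). Both were called lower than in uninjured mice on day 14 (Car1 -1.76 ± 0.39, SE, adjusted p 0.027; Car4 -1.21 ± 0.22, SE, adjusted p 0.015), and 6 of the 15 colonocyte genes were (9.51% of all genes).

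Of 15 salt and water transport genes, Slc26a3 and Slc5a8 rose and none fell (median 0.62). In the wider fit 6 rose (9.66% of all genes did). Against day 0, 10 of the 15 were called lower on day 14 (9.51% of all genes were). Slc5a8, the sodium-coupled carrier of butyrate and other short-chain fatty acids, was 16.9, 16.3 and 9.81 TPM on day 9 and 101, 74.0 and 72.6 TPM on day 14 (2.47 ± 0.25, SE; adjusted p 0.013), next to 92.9 to 103 TPM in uninjured mice. The epithelial sodium channel subunit Scnn1g was 42.3, 5.05 and 20.1 TPM on day 9 and 17.6, 6.09 and 7.57 TPM on day 14, so it overlapped (adjusted p 0.51) and stayed below the uninjured 39.8 to 61.7 TPM (-2.19 ± 0.32, SE; adjusted p 0.0105). Among tight junction genes, 1 of 11 rose and 1 fell. The riser was Cldn15, which forms cation-permeable junctions, from 2.27, 2.24 and 2.28 TPM to 11.2, 17.8 and 17.2 TPM (2.30 ± 0.23, SE; adjusted p 0.012). It passed the uninjured range of 6.96 to 8.70 TPM in all 3 mice (0.89 ± 0.17 against day 0, SE; adjusted p 0.018).

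Among 13 intestinal lineage transcription factors tested, Hnf4g, Vdr and Atoh1 rose, none fell, and the median was 0.66 (6 rose in the wider fit). Hnf4g, a factor of absorptive enterocytes, was 4.95, 4.05 and 3.34 TPM on day 9 and 16.4, 11.2 and 10.6 TPM on day 14 (1.42 ± 0.24, SE; adjusted p 0.027). Its relative Hnf4a lay wholly higher on day 14, at 98.3, 77.0 and 99.2 TPM and 179, 143 and 108 TPM, without passing the threshold (adjusted p 0.11). Atoh1, the factor that commits crypt cells to secretory fates, went from 5.44, 3.18 and 4.22 TPM to 14.0, 14.3 and 9.78 TPM (1.38 ± 0.25, SE; adjusted p 0.029), within or just above the uninjured 9.68 to 14.0 TPM.

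Goblet cell genes rose past their uninjured level in part. Of 11 tested, Muc2, Agr2 and Spink4 rose and none fell (median 0.95); 6 rose with trimmed-mean factors and 8 in the wider fit. Spink4, a goblet cell protease inhibitor, was 675, 821 and 679 TPM on day 9 and 2900, 2836 and 3887 TPM on day 14, a change of 2.13 ± 0.18 (SE; adjusted p 0.012). Muc2, the gel-forming mucin of the colon, went from 633, 523 and 1052 TPM to 1555, 1611 and 1702 TPM (1.20 ± 0.26, SE; adjusted p 0.04). Agr2, the disulfide isomerase that folds it, went from 467, 536 and 585 TPM to 1664, 1511 and 2019 TPM (1.70 ± 0.17, SE; adjusted p 0.012). For these genes all 3 mice of day 14 were alike, and mouse 14 was not apart from the others. Each exceeded day 0: Spink4 by 1.88 ± 0.16 (SE; adjusted p 0.0023), Muc2 by 1.45 ± 0.10 (SE; adjusted p 0.00098) and Agr2 by 0.64 ± 0.15 (SE; adjusted p 0.028). Reg4, a secretory lectin, rose from 166, 89.1 and 140 TPM to 549, 327 and 480 TPM (1.78 ± 0.29, SE; adjusted p 0.027) and was also above day 0 (1.38 ± 0.21, SE; adjusted p 0.011). Zg16, a secreted goblet cell lectin, overlapped between the days, at 8759, 5476 and 7953 TPM and 13928, 6332 and 6694 TPM (adjusted p 0.72). Retnlb, the goblet resistin-like protein, was 8.33, 17.9 and 12.8 TPM and 12.6, 92.3 and 248 TPM, high in mice 15 and 16 (adjusted p 0.15).

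The median change of the enteroendocrine genes was opposite in sign to the medians of the colonocyte and goblet lists. Of 10 enteroendocrine genes tested, Gcg fell and none rose (median -0.73); 5 fell in the wider fit. Gcg, the precursor of glucagon-like peptides, was 146, 111 and 139 TPM on day 9 and 30.4, 35.7 and 22.9 TPM on day 14 (-2.13 ± 0.21, SE; adjusted p 0.012). All 3 mice of day 14 were still above the uninjured 11.4 to 13.9 TPM (1.15 ± 0.16, SE; adjusted p 0.0081). Against day 0, 7 of 10 enteroendocrine genes tested were called higher (6.31% of all genes were). Pyy (peptide YY) was 835, 658 and 959 TPM on day 9 and 581, 479 and 364 TPM on day 14 (-0.79 ± 0.23, SE; adjusted p 0.07). Insl5, a hormone of colonic L cells, overlapped, at 161, 235 and 223 TPM and 197, 135 and 111 TPM. The tuft cell list could not be read: Pou2f3, Gnat3 and Trpm5 were under 1 TPM in all 6 samples and Il25 was listed at 0, so the falls of its members Avil and Alox5ap are given only as genes.

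**Figure D3:**
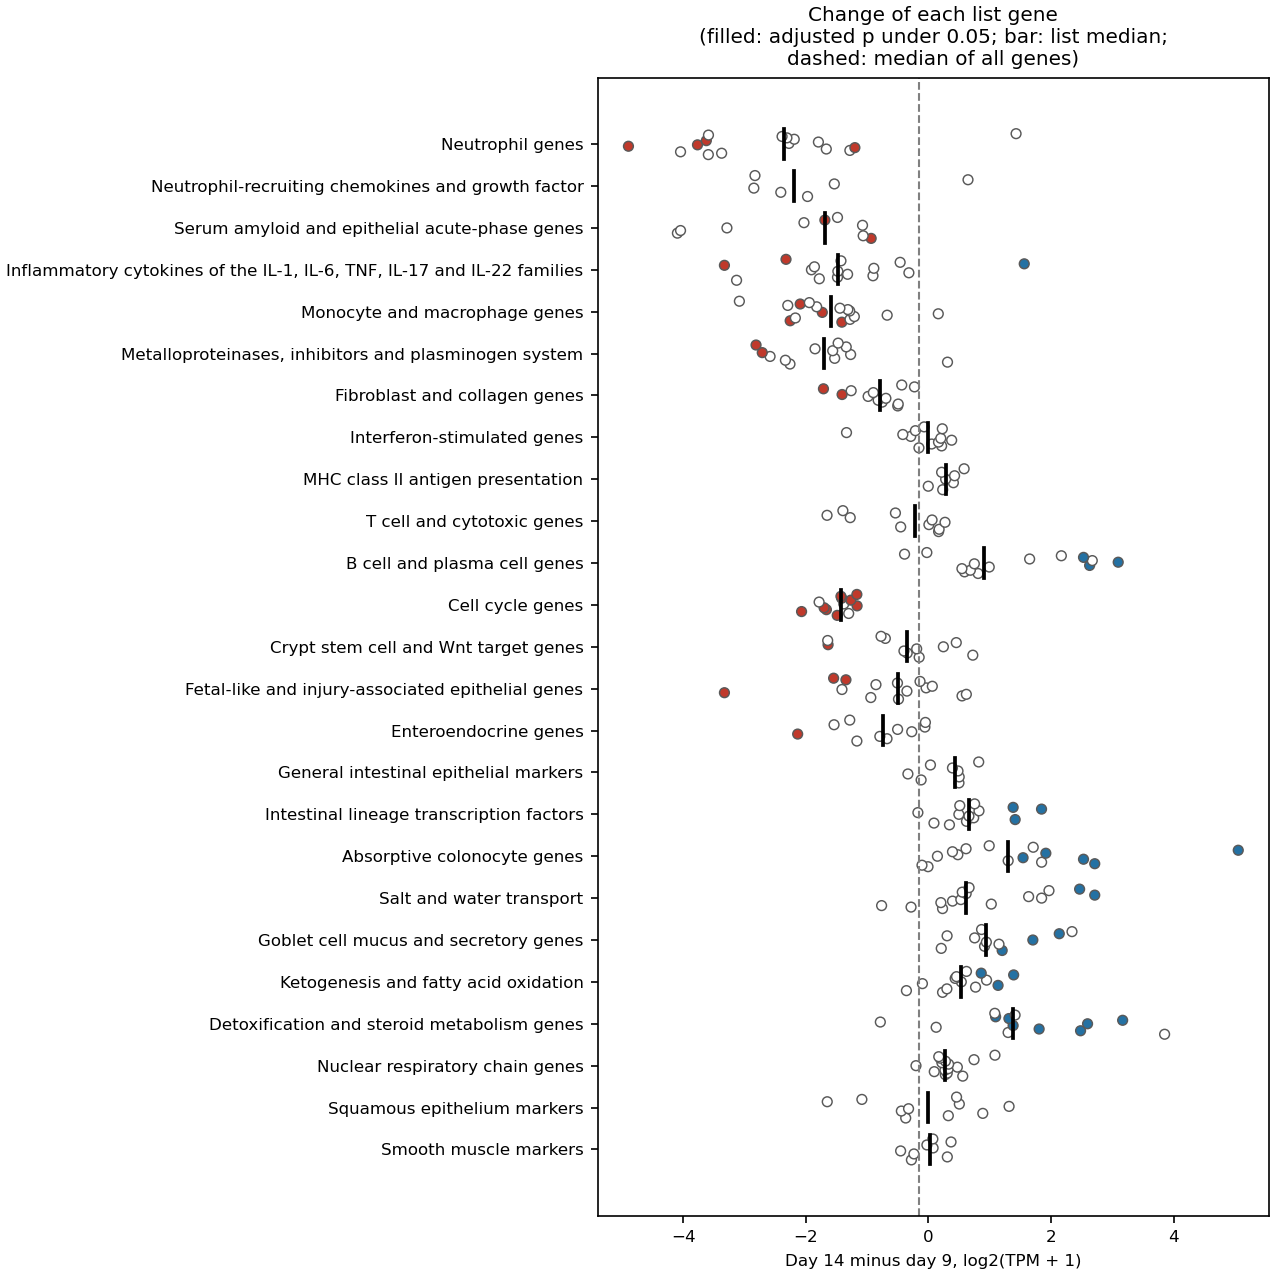
Change of each listed gene from day 9 to day 14, as the log2(TPM + 1) difference, by gene list; filled circles passed an adjusted p of 0.05 (red lower, blue higher), open circles did not, black bars are list medians and the dashed line is the median of all genes (-0.16). Neutrophil, acute-phase, macrophage and cell cycle genes lie to the left, colonocyte, goblet and detoxification genes to the right, and interferon-stimulated genes around 0.

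Detoxification and steroid metabolism had the most rises of any list. Of 13 genes tested, 7 rose (Sult1a1, Gstm3, Ugt1a1, Ugt2b34, Gstm1, Nqo1 and Hsd17b2), none fell, and the median was 1.38; 11 rose in the wider fit. Sult1a1, a phenol sulfotransferase, was 21.5, 4.22 and 5.27 TPM on day 9 and 105, 65.9 and 74.3 TPM on day 14 (3.17 ± 0.54, SE; adjusted p 0.027). Gstm3, a glutathione transferase, went from 2.25, 1.38 and 2.34 TPM to 19.3, 17.6 and 14.1 TPM (2.60 ± 0.23, SE; adjusted p 0.012). Cyp2c55 had a larger mean difference that did not pass, at 36.1, 1.53 and 8.18 TPM and 810, 53.7 and 57.6 TPM, with mouse 14 far above the others (3.85 ± 1.27, SE; adjusted p 0.096). Cyp2c68 rose from 12.1, 4.98 and 5.44 TPM to 199, 48.5 and 86.3 TPM (3.58 ± 0.53, SE; adjusted p 0.023), and members of this cytochrome family are close copies, so its value is uncertain. Of 13 genes of ketogenesis and fatty acid oxidation, 3 rose, among them Acadm and Ehhadh, and none fell (median 0.54; 9 rose in the wider fit). Acadm, the first enzyme of medium-chain fatty acid oxidation, was 42.7, 28.1 and 34.6 TPM on day 9 and 106, 60.2 and 72.7 TPM on day 14 (1.14 ± 0.26, SE; adjusted p 0.043). In limma, 0 of 15 nuclear respiratory chain genes were called, with 4 at an unadjusted p under 0.05 (median 0.28), and 6 rose in the wider fit.

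The 15 largest rises were S100g, Dio1, Cyp2c68, Trpv6, Pck1, Sult1a1, Selenbp1, Khdc1a, Igha, Sult1d1, Hsd3b3, Smim24, Slc39a5, Slc26a3 and Jchain. Dio1, a thyroid hormone deiodinase, was 2.81, 2.57 and 2.19 TPM on day 9 and 90.2, 25.9 and 35.0 TPM on day 14, against 98.3 to 115 TPM in uninjured mice (3.66 ± 0.43, SE; adjusted p 0.014). Pck1, the entry enzyme of gluconeogenesis, went from 2.91, 0.756 and 1.52 TPM to 52.7, 16.7 and 17.8 TPM (3.34 ± 0.49, SE; adjusted p 0.023). In Dio1, Pck1 and S100g mouse 14 had the highest level of day 14, at or near the uninjured range. Khdc1a differed from the other 14. It was between 0.17 and 0.574 TPM in uninjured mice, 2.28, 2.94 and 2.28 TPM on day 9 and 24.4, 30.3 and 33.9 TPM on day 14, with little spread among mice. It rose by 3.12 ± 0.21 (SE; adjusted p 0.0063) and stood above day 0 by 4.41 ± 0.17 (SE; adjusted p 8.4e-05). On day 20 its levels were 66.8, 74.6 and 15.0 TPM. Khdc1a (ENSMUSG00000067750, chromosome 1, 21349641 to 21352200) has related copies nearby, so its value is uncertain.

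Mid-colon of the same 6 mice was used to ask whether the change differed between the sections. The test of the difference in change between the sections called 0 of 13524 genes (0%), with 706 at an unadjusted p under 0.05, and also 0 with the mouse as a replicate block (1525 at an unadjusted p under 0.05; smallest adjusted p 0.21, against 0.82 without the block). The genes below were chosen for their rectal change, which favours a larger value there. Thbs1 changed by -3.23 in rectum and -0.88 in mid-colon, a difference of -2.35 ± 0.68 (SE; adjusted p 0.82). Il10 changed by -2.32 and -0.39, a difference of -1.93 ± 0.38 (SE; adjusted p 0.82, and 0.21 with the block). In mid-colon Il10 was between 0.202 and 0.715 TPM on day 9. Among the rises, S100g changed by 5.05 in rectum and 3.86 in mid-colon (1.20 ± 0.83, SE; adjusted p 0.95), and Sult1a1 by 3.17 and 3.42. No gene's change can be called particular to the rectum from these samples.

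**Figure D4:**
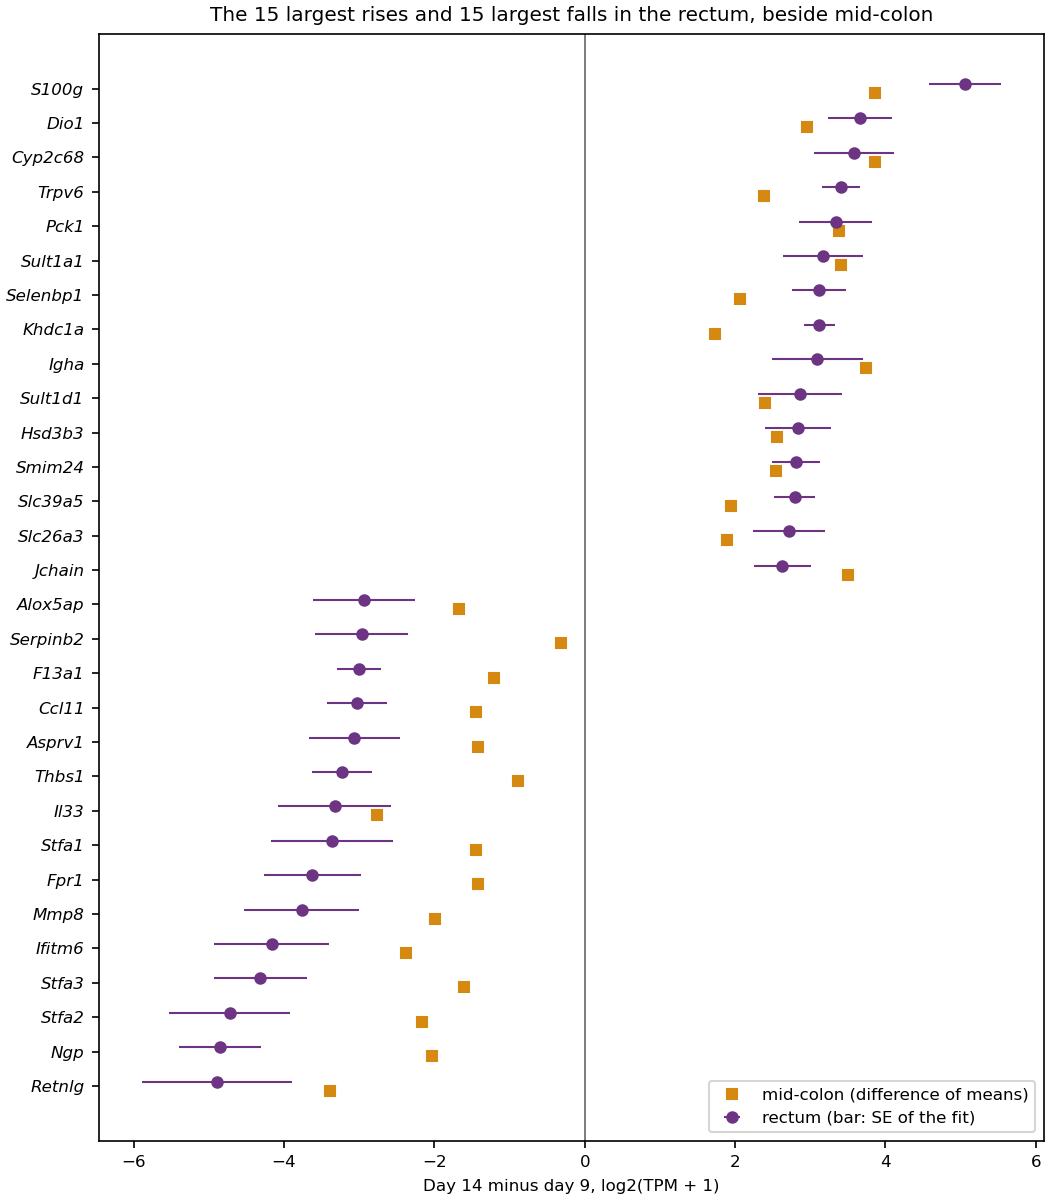
Change from day 9 to day 14 of the 15 largest rectal rises and 15 largest rectal falls, as the log2(TPM + 1) difference, in rectum (circles, with the standard error of the fit) and in mid-colon of the same mice (squares, difference of group means). The genes were chosen for their rectal change; mid-colon values lie on the same side of 0 and, for falls such as Thbs1 (-3.23 and -0.88), nearer to it.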

How the data were processed

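The authors deposited 1 table of the whole series with a signal value per transcript and sample, in TPM; per the labels' protocols it came from stranded mRNA libraries read as single 75 bp reads, and the submitters' processing notes name CASAVA, kallisto and mm10, with versions not given in the sources used here. Of 126860 rows, 37344 had no values and 1318 repeated a transcript and were dropped, after which each sample summed to the TPM total within 0.22. TPM were summed per gene (30452 genes). TPM is a share of each library, so a few abundant transcripts move all others.

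Genes with at least 1 TPM in at least 3 samples were tested on log2(TPM + 1), a pseudocount of 1, with limma 3.58.1 (R 4.3.3; two-sided, moderated with a trend, Benjamini-Hochberg adjustment, threshold 0.05); fold changes on this scale understate those of low genes. Only the groups compared entered each fit. In the fits of day 14 against day 9 that left out 1 mouse, the filter asked for 2 samples instead of 3. It did so too in the fits against day 0 that left out a day 14 mouse. The fitting code was run on simulated data with independent noise for each gene. Those data held no shift shared by the genes of a mouse, so they do not show how reliable the calls are. The design assumed TPM, and the unit held. The members and the 37 lists (416 genes) were chosen with earlier results of these data known. Named genes are list members and the 15 largest rises and 15 largest falls among called genes with a mean of at least 10 TPM in the higher group, no overlap between days and a proper symbol. In the test against mid-colon, the mouse number pairs sections of the same animal: deviations of the 2 sections correlated at 0.334, 0.272 and 0.16 for mice 11, 12 and 13 and at 0.613, 0.406 and 0.562 for mice 14, 15 and 16, across genes. Alternatives were other scaling factors, no mitochondrial genes, another pseudocount, other filters, all 19 rectal samples, a 2-fold minimum, each mouse left out and the replicate block. The labels name no batch.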

Additional observations from a re-analysis of the deposited data

Results flagged for a closer look

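In the 4 uninjured rectal samples, 13 of the 116 named genes had 1 mouse whose gap to the nearest other, as a share of the range of log2(TPM + 1), was above Dixon's 95% critical value for 4 samples. Chance flags about 1 in 20 independent groups, but these genes share the same 4 mice, so the 13 flags cannot be set against that rate. The high ones were S100g (598 TPM against 170 to 197 in the other 3, ratio 0.883), Cyp2c55 (1186 against 650 to 709 TPM, ratio 0.854), Ccnb1 (20.6 against 16.7 to 17.1 TPM, ratio 0.894), Gstm3 (32.3 against 23.5 to 24.4 TPM, ratio 0.889) and Ly6g (736 against 602 to 615 TPM, ratio 0.893). Smaller gaps in the same direction were those of Slc5a8 (103 against 92.9 to 94.5 TPM, ratio 0.833), Timp1 (3.44 against 2.16 to 2.35 TPM, ratio 0.833) and Ugt2b34 (307 against 273 to 278 TPM, ratio 0.843). Retnlg (0.672 TPM, ratio 1.000) and Ccr3 (0.0233 TPM, ratio 1.000) were listed at 0 in the other 3 mice, so any value above 0 gives this ratio. The low ones were Hnf4g (14.1 against 20.9 to 21.8 TPM, ratio 0.907), Pigr (764 against 912 to 935 TPM, ratio 0.876) and Hsd17b2 (140.5 against 155 to 158 TPM, ratio 0.849). These samples enter the values given against day 0 and the fit over all 19 rectal samples.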

How the results depend on the processing

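The count of genes called between day 9 and day 14 was 1054, and stayed within 1.5 times of it without mitochondrial genes (1149), with a pseudocount of 0.1 (815), with a 5 TPM filter (1116) and with a 2-fold minimum (842). It was 1658 with trimmed-mean factors, 114 with no filter, 3907 with all 19 rectal samples, and between 0 and 695 with 1 mouse left out. Of the 1054 genes, 947 were also called with trimmed-mean factors. Against day 0 the count was 2017, and between 386 and 5165 with 1 mouse left out. The difference in change between rectum and mid-colon gave 0 calls in limma under every alternative run, with 706 genes at an unadjusted p under 0.05 in the main setting and 1525 when each mouse was a replicate block; the block changed no call. Genes that were not called changed sign in some settings. Car1 (-0.01) was 0.18 with trimmed-mean factors and 0.07 without mitochondrial genes, and Car4 (-0.10) was 0.09 with trimmed-mean factors. With 1 mouse left out the log2 change ran from -0.55 to 0.32 for Car1, -0.38 to 0.11 for Car4, -0.38 to 2.16 for Cd79a and -0.17 to 1.55 for Ms4a1. It ran from -0.19 to 0.87 for H2-Aa, -1.63 to 1.92 for Krt5, -0.13 to 2.16 for Krt13 and -0.16 to 0.41 for Zg16. The cause of these shifts was not tested. Without read counts the depth is unknown, and 3 mice a day limit the precision.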
